A study of Homo sapiens with 6 samples.

Results

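Metallothioneins, the zinc-sensing transcription factor MTF1 and the zinc exporter SLC30A1 were examined in 2 sublines of SKOV3, a cell line from a human ovarian carcinoma. The genes were chosen by name: MT1A, MT1E, MT1F, MT1G, MT1H, MT1M, MT1X, MT2A, MTF1 and SLC30A1, 10 in all. The platform annotation gave 12 probes for 9 of them (of 18849 genes named on the array, read by part of its 48799 probes), and named none for MT1A. Of the 12 probes, 8 probes of 7 genes were bright enough on 3 or more of the 6 arrays to pass the filter on dim signal and were tested. The 6 samples are 3 of SKOV3-OM3, labelled metastatic, and 3 of SKOV3-ip1, labelled parental, called OM3 and ip1 here. The labels name no treatment for either group. The labels give neither how OM3 was derived nor whether it is a clone, nor whether samples of a group came from separate cultures, so p-values rest on a spread among samples that could be technical. Each sample's biotin-labelled cRNA was read on a 1-colour Illumina bead array, and signal was normalized to log2 intensity.

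Metallothioneins are small cysteine-rich proteins that bind zinc and copper, and also cadmium and platinum, for which they have been studied in ovarian cancer treated with cisplatin. When free zinc rises, MTF1 binds metal response elements in the promoters of metallothionein genes and of SLC30A1, whose product moves zinc out of the cell. MT2A and most MT1 genes are used in many tissues and lie side by side on chromosome 16, whereas MT3 and MT4 are used in brain and in squamous epithelia.

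The promoter windows of MT2A, MT1X and SLC30A1 are shown because they carry the element through which MTF1 acts, and because these genes lay on both sides of the comparison below. Each window runs from 250 bases before to 50 bases after the annotated gene start, from RefSeq (GRCh38.p14), on the strand of the gene. Capitals mark every match, on either strand, to the 7-base core of the metal response element, searched as TGCACNC and TGCGCNC. MT2A is at chr16:56608334-56608633 (plus strand), MT1X at chr16:56682220-56682519 (plus strand) and SLC30A1 at chr1:211579112-211579411 (minus strand).
MT2A: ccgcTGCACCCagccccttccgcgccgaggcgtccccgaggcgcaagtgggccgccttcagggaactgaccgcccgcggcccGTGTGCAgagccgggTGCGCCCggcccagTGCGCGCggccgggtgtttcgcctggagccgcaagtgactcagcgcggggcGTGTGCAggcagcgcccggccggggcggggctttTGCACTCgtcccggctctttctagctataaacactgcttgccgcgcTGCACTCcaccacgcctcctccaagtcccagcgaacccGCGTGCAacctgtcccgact
MT1X: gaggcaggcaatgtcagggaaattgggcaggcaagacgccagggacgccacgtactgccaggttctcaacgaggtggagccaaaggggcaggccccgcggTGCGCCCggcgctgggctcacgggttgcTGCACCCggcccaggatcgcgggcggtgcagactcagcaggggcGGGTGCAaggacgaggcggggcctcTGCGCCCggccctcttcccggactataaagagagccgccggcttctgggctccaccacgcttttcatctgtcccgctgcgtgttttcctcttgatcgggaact
SLC30A1: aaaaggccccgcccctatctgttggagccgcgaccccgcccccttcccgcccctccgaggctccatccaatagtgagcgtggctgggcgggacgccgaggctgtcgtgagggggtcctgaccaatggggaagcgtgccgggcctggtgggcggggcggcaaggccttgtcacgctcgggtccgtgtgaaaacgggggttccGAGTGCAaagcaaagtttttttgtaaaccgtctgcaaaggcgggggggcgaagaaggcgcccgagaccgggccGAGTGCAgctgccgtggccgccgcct

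The MT2A window held 8 matches, the MT1X window 4 and the SLC30A1 window 2. Of the other members in the promoter table, MT1H had 8 matches and MTF1 had 0. MT1B, a family member outside the 10, had 3. Among all 35116 promoter windows of this length, 29.6% held at least 1 match, 8.60% at least 2, 2.30% at least 3, 0.601% at least 4 and 0.0199% at least 8. A match is a match of letters and was not tested for binding. In MT1X and MT1H, and within 1 base in MT1B, a match on the opposite strand lay at position -78, followed by a match on the gene's strand at -53, where -1 is the base before the gene start and a match is placed by its first base. In MT2A the nearest such pair lay at -88 and -54.

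**Figure D1:**
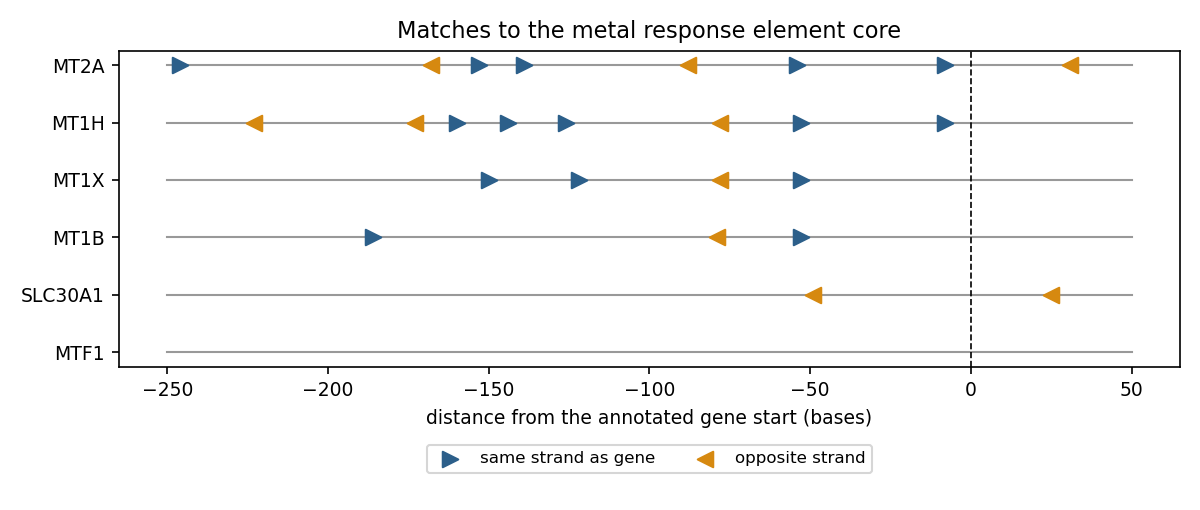
Matches to the metal response element core in promoter windows, by distance from the annotated gene start in bases. Rows are MT2A, MT1H, MT1X, MT1B, SLC30A1 and MTF1, and triangles point along the strand of the match; MT2A and MT1H have 8 matches each and MTF1 has 0.

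MT2A and MT1X, above background on all 6 arrays, were lower in OM3, and MT1G and MT1E were below background on every OM3 array. MT1F did not pass the test, and both SLC30A1 probes were slightly higher in OM3. Of the 8 tested probes, 4 were lower (MT2A, MT1G, MT1X and MT1E), 2 were higher (both of SLC30A1) and 2 did not pass (MT1F and MTF1), by limma at an adjusted p under 0.05. MT1G and MT1E passed the filter through ip1 alone, which favoured a lower call for them. Requiring signal on all 6 arrays left 2 lower, as did leaving out any ip1 array (replicate 1, 2 or 3), since MT1G and MT1E then failed the filter. The comparison was broad: of all 19011 tested probes, 23.1% were lower and 28.1% higher in OM3, and the median log2 fold change was 0.08. RNA of whole cultures was measured, so fewer cells that express a gene and less RNA per cell cannot be told apart.

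**Figure D2:**
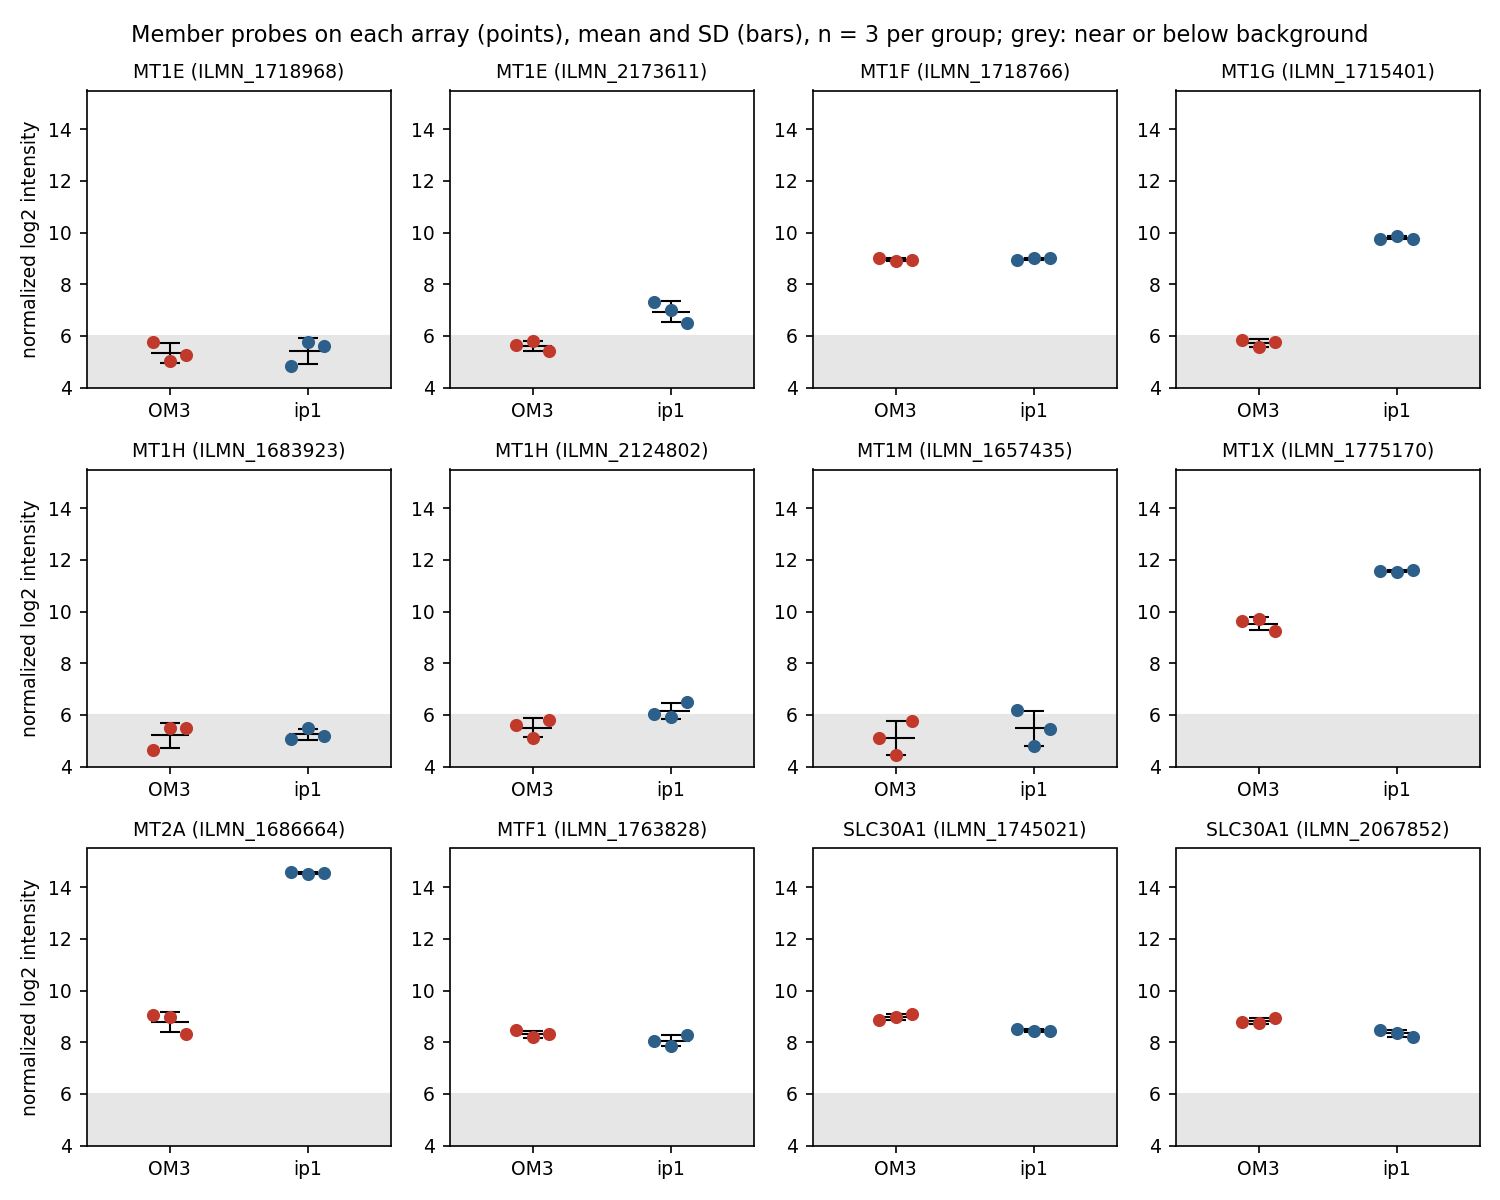
Normalized log2 intensity of the 12 member probes on each of the 3 OM3 arrays (left, red) and 3 ip1 arrays (right, blue), with mean and SD; the grey band lies below 6, close to the lowest values above background (5.93 to 6.04). The probes of MT2A, MT1G and MT1X are separated most between the sublines, while those of MT1F coincide.

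MT2A, the most widely used human metallothionein, had deposited intensities of 647, 598 and 420.2 on the OM3 arrays, against 25539.7, 24252 and 23495 on the ip1 arrays. The groups did not overlap, which was so, with OM3 lower, for 26.8% of all tested probes, and the third OM3 array was the lowest. On the log2 scale the level was 8.78 ± 0.40 in OM3 and 14.55 ± 0.02 in ip1 (SD, n = 3 each). The log2 fold change was -5.77 ± 0.20 (SE, limma adjusted p = 1.22e-07), a level 54.7-fold lower in OM3.

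MT1G, which is inducible by metals, had intensities of 144.9, 133.5 and 140.7 in OM3, against 966, 904 and 846 in ip1. All 3 OM3 values were below background, so the difference is a bound: the probe was at least 14-fold lower in OM3 (limma adjusted p = 1.04e-07). The probe was well above background on all 3 ip1 arrays and passed the filter through them alone, which favoured a lower call. In the authors' deposited log2 table its log2 fold change was -2.61, a smaller fall than this bound.

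MT1X had intensities of 947, 977 and 732 in OM3, against 3216, 2776 and 2835 in ip1. It remained above background on every array of both sublines. Its log2 level was 9.53 ± 0.25 in OM3 and 11.58 ± 0.03 in ip1 (SD, n = 3 each), a log2 fold change of -2.05 ± 0.16 (SE, limma adjusted p = 1.29e-05) and a level 4.14-fold lower in OM3.

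MT1E was dim in both sublines. Its probe ILMN_2173611 had log2 values of 5.64, 5.81 and 5.42 in OM3, all below background, against 7.30, 7.00 and 6.51 in ip1. It was at least 1.92-fold lower in OM3 (limma adjusted p = 0.00108). Its other probe, ILMN_1718968, was below background on all 6 arrays, so the difference rests on 1 probe of the gene. In the authors' deposited log2 table the log2 fold change was -0.57, a smaller fall than this bound.

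MT1F, another MT1 gene of the cluster, did not pass the test. Its intensities were 632, 580.1 and 601 in OM3, against 585, 551 and 548 in ip1, and the normalized values of the sublines overlapped. The log2 level was 8.95 ± 0.06 in OM3 and 8.98 ± 0.05 in ip1 (SD, n = 3 each). The log2 fold change of -0.03 ± 0.13 (SE, limma adjusted p = 0.868) had a 95% confidence interval from -0.32 to 0.26, which excludes a fall of the size seen in MT1X.

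The difference between family members was also read within each array, where scaling of the array cancels. The log2 ratio of the MT2A probe to the MT1F probe was 0.04, 0.05 and -0.61 in OM3, against 5.66, 5.51 and 5.54 in ip1. For MT1X over MT1F it was 0.63, 0.80 and 0.32 in OM3, against 2.67, 2.52 and 2.61 in ip1, and for MT2A over MT1X it was -0.59, -0.75 and -0.93 in OM3, against 2.99, 2.99 and 2.93 in ip1. In each of these 3 ratios every OM3 value lay below every ip1 value. MT2A and MT1X were already separated between the sublines and MT1F was level, so separation of the ratios over MT1F adds no support. How often other pairs of probes separate in this way was not counted. Each had p = 0.1 by a two-sided exact permutation test (adjusted p = 0.1 over the 3), the smallest p that 3 against 3 arrays allow, so none can pass 0.05. The ratios show unequal change between probes and say nothing of which transcript is more abundant.

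The remaining metallothionein members could not be compared. MT1H was below background on all 6 arrays by probe ILMN_1683923, and by ILMN_2124802 it had log2 values of 5.62, 5.11 and 5.81 in OM3, none above background, against 6.03, 5.90 and 6.49 in ip1, of which 2 were. MT1M, which is known from liver, had 5.10, 4.46 and 5.75 in OM3, none above background, against 6.19, 4.82 and 5.44 in ip1, with 1 above. These 3 probes did not pass the filter and are not called absent.

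Of the family members outside the 10, MT1B had a tested probe. Its log2 values were 5.72, 5.79 and 4.35 in OM3, all below background, against 6.50, 6.55 and 6.80 in ip1. The probe passed the filter through ip1 alone, which favoured a lower call. After background correction it was at least 1.54-fold lower in OM3 (limma adjusted p = 0.0127). In the authors' deposited log2 table its log2 fold change was -0.48, a smaller fall than this bound. The probes of MT3, MT4 and the transcribed pseudogene MT1L were below background on all 6 arrays. Metallothionein transcripts are similar in sequence, and how far a probe also reads transcripts of other members was not tested.

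SLC30A1, the zinc exporter of the plasma membrane, was higher in OM3 by both of its probes. Probe ILMN_1745021 had log2 values of 8.86, 8.98 and 9.09 in OM3, against 8.53, 8.44 and 8.42 in ip1, a log2 fold change of 0.51 ± 0.13 (SE, n = 3 each, limma adjusted p = 0.0115). Probe ILMN_2067852 had 8.78, 8.74 and 8.94 in OM3, against 8.47, 8.37 and 8.20 in ip1, a log2 fold change of 0.48 ± 0.14 (limma adjusted p = 0.0199). Neither probe's groups overlapped, which was so, with OM3 higher, for 33% of all tested probes. The 2 probes read the same gene and are not independent. Both calls were lost with cyclic loess normalization (log2 fold changes 0.33 and 0.31, adjusted p = 0.0676 and 0.0976) and when all probes were tested without a filter (adjusted p = 0.109 and 0.146). That of ILMN_2067852 was also lost without ip1 replicate 3 (adjusted p = 0.0689) and without OM3 replicate 3 (adjusted p = 0.0637).

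MTF1, the transcription factor that acts on metallothionein genes and on SLC30A1, had log2 values of 8.46, 8.19 and 8.30 in OM3, against 8.05, 7.87 and 8.29 in ip1. The groups overlapped. The log2 fold change was 0.25 ± 0.16 (SE, limma adjusted p = 0.223), with a 95% confidence interval from -0.11 to 0.61. This is the level of its RNA and does not measure its activity.

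**Figure D3:**
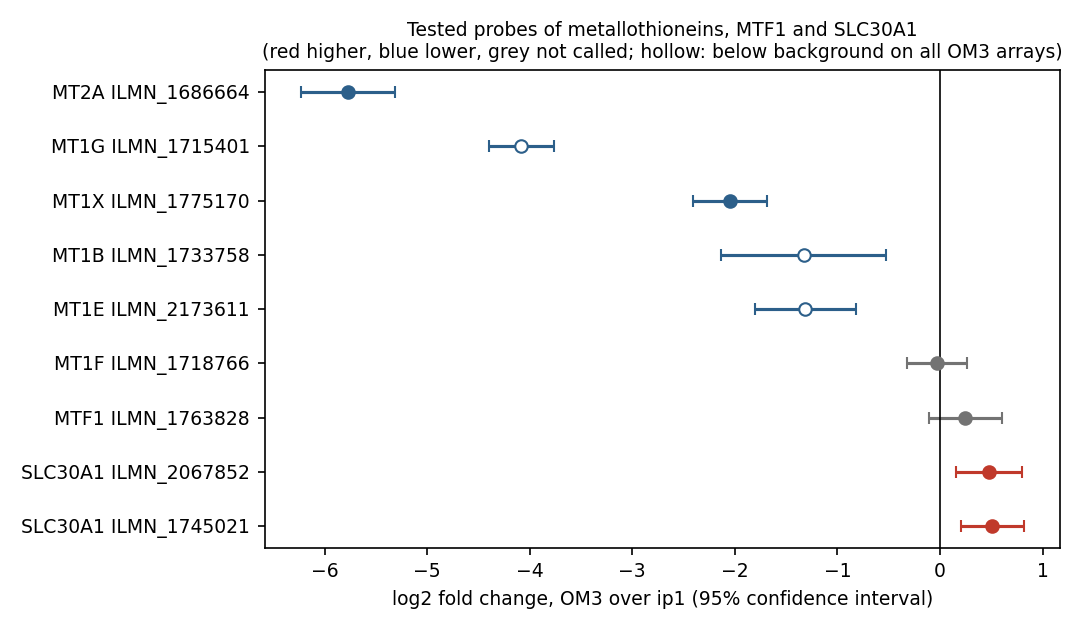
Log2 fold change of OM3 over ip1 with 95% confidence intervals for the tested probes of metallothioneins, MTF1 and SLC30A1, from 3 arrays per group; red is higher, blue lower, grey not called, and hollow points rest on background signal in OM3. MT2A is at -5.77, MT1X at -2.05 and MT1F at -0.03, while both SLC30A1 probes lie near 0.5.

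Markers of cell identity moved between the sublines on the same arrays, each gene read by its brightest probe and summed as linear normalized intensity. Of all tested genes 24.9% were lower and 30% higher. Of 10 ovarian carcinoma epithelial markers 7 fell and 1 rose, with sums from 9250.5 to 10903 in OM3 and from 41704.5 to 45301 in ip1. The 1 that rose, EPCAM, was the brightest of the 10 in OM3 (mean log2 13.02) and weighs most in its sums. KRT19 and PAX8 were below background on all OM3 arrays and passed the filter through ip1 alone, which favoured a lower call. Of 9 fibroblast markers 6 were tested and called higher, of which COL1A2, COL3A1, DCN, LUM and THY1 passed the filter through OM3 alone, which favoured that call. The sums of the 9 ran from 7789.7 to 8879.6 in OM3 and from 374 to 393 in ip1; FAP and PDGFRB were below background on all OM3 arrays, and 6 markers on all ip1 arrays. Of 5 mesothelial markers 3 fell, of which LRRN4 and MSLN passed the filter through ip1 alone, with sums from 313 to 466 in OM3 and from 3049.9 to 3344 in ip1. Of the adipocyte, endothelial and leukocyte markers, 5 each, PLIN1 and CD68 were called lower and none higher. PLIN1 passed the filter through ip1 alone and was dim there (intensities 149.9, 142.5 and 140.1). Its bound was 1-fold, so the call shows no fall of known size. FABP4, CDH5, VWF, CD3E and PTPRC were below background on all 6 arrays. The sums of these lists in OM3 were 480.4 to 542, 291 to 329.6 and 679.6 to 859, against 432 to 705, 276 to 333 and 1973 to 2702 in ip1, in that order of lists. The part of these differences in the metallothionein result was not tested. Arrays of a group correlated at 0.983 to 0.986 over the tested probes, and an OM3 array with an ip1 array at 0.821 to 0.836.

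Genes around the metallothionein cluster were called lower more often than higher, but the fall was not shared by all of them. Of the 10 protein-coding genes on each side, 12 were tested, of which 5 were lower, 1 was higher and 6 did not pass, against 24.9% lower and 30% higher of all tested genes. The share called lower was above that of all genes and the share called higher below it, which was not tested on these 12. Their log2 fold change was below 0 for 9 and above 0 for 3, with a median of -0.22 and a lowest value of -1.68. Of all 11732 tested genes, 5350 lay below 0 and 6382 above. BBS2, a protein of the cilium and the gene next to MT4, rose (0.62 ± 0.15, limma adjusted p = 0.00901). NUP93, a nuclear pore protein and the gene next to MT1X, fell (-0.70 ± 0.15, limma adjusted p = 0.00464).

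Farther out, CPNE2, a calcium-dependent membrane-binding protein, had a log2 fold change of -1.68 ± 0.24 (limma adjusted p = 0.000518) and was above background on 1 of 3 OM3 arrays. PLLP, a membrane protein of myelin, had -1.63 ± 0.29 (limma adjusted p = 0.00157) and PSME3IP1 -0.61 ± 0.19 (limma adjusted p = 0.025). The carboxylesterase gene CES1 was below background on all OM3 arrays and passed the filter through ip1 alone, which favoured a lower call. After background correction it was at least 1.64-fold lower in OM3 (limma adjusted p = 0.00233). In the authors' deposited log2 table the log2 fold changes were smaller, -0.84 for CPNE2, -1.03 for PLLP and -0.51 for CES1. That of CES1 is a smaller fall than its bound. The call of PSME3IP1 was lost without ip1 replicates 1 or 2 or OM3 replicate 3, and without a filter, with adjusted p from 0.0662 to 0.123. Within the cluster itself MT1F, which lies between MT1B and MT1G, had no called difference.

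**Figure D4:**
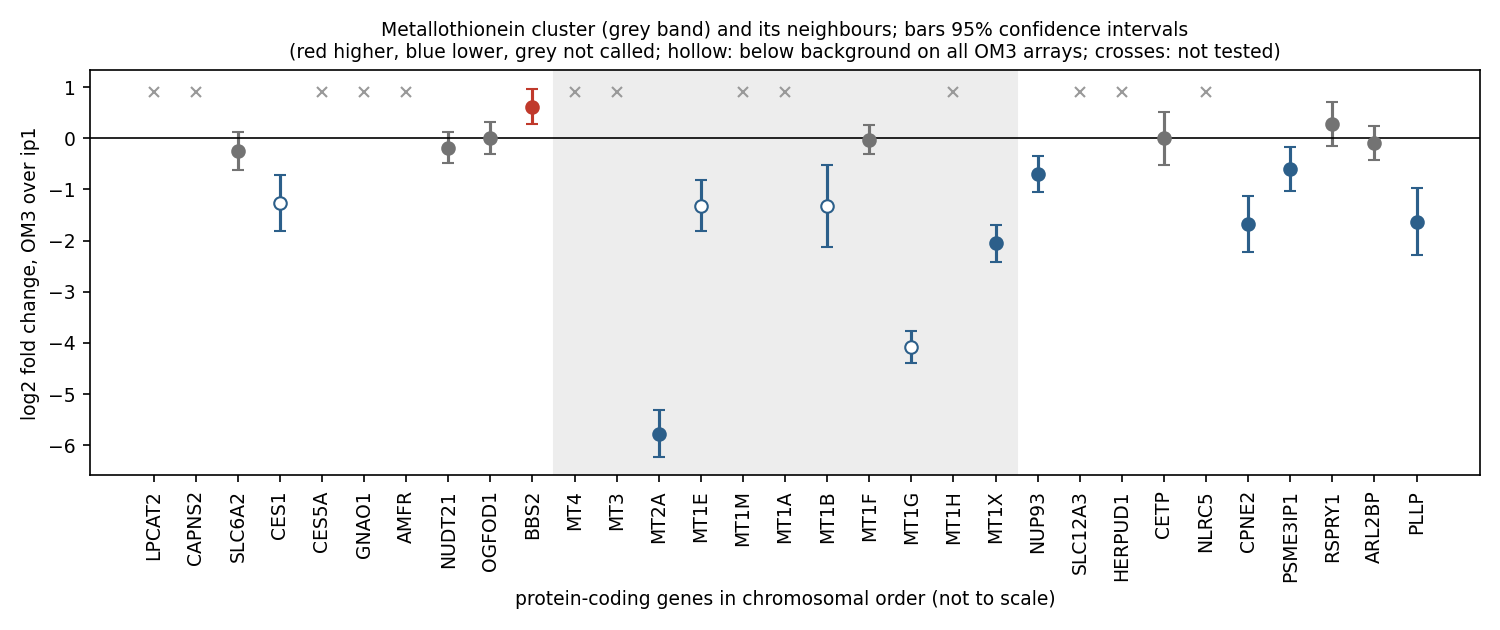
Log2 fold change of OM3 over ip1, with 95% confidence intervals, for the metallothionein cluster (grey band) and 10 protein-coding genes on each side, in chromosomal order and not to scale. The points of MT2A and MT1G lie below those of the tested neighbours, whose lowest value is -1.68; hollow points rest on background signal in OM3 and crosses mark genes not tested.

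Other zinc transporters were called higher more often than lower, as were all tested genes. Most transporters of the SLC30 family, called exporters here, move zinc out of the cytosol, and importers of the SLC39 family move it in. Of 9 other exporters 5 were tested, of which 3 were higher and none lower (median log2 fold change 0.64). Of 14 importers 11 were tested, of which 4 were higher and 1 lower (median 0.33). Of all tested genes 30% were higher and 24.9% lower. The share of importers called higher is thus near that of all genes, and the share called lower is below it. With 11 tested importers, neither share was tested against all genes. The 5 tested exporters are too few for a share to be compared.

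SLC30A7, which brings zinc into the Golgi apparatus, had log2 values of 9.36, 9.15 and 9.47 in OM3, against 8.34, 8.53 and 8.70 in ip1, and rose by 0.80 ± 0.16 (SE, n = 3 each, limma adjusted p = 0.00266). SLC30A6, a transporter of the secretory pathway, rose by 0.75 ± 0.21 (limma adjusted p = 0.0152), and SLC30A9, known from mitochondria, by 0.64 ± 0.16 (limma adjusted p = 0.0109). SLC30A5, the partner of SLC30A6, had probes that disagreed: the brightest gave 0.22 ± 0.14 (limma adjusted p = 0.22), a dimmer one gave 0.28 ± 0.15 (limma adjusted p = 0.155), and 2 others gave 0.97 ± 0.15 and 1.06 ± 0.21 (limma adjusted p = 0.000775 and 0.00281). The calls of SLC30A6 and SLC30A9 were lost when no filter was used (adjusted p = 0.0754 and 0.0762).

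Among importers, SLC39A8, which also carries cadmium and manganese, had log2 values of 10.68, 10.63 and 10.97 in OM3, against 9.26, 9.52 and 9.13 in ip1. It rose by 1.45 ± 0.16 (SE, n = 3 each, limma adjusted p = 0.000123), and by its second probe by 2.93 ± 0.21 (limma adjusted p = 8.99e-06). SLC39A4, the importer of dietary zinc whose loss causes acrodermatitis enteropathica, went the other way. Its values were 8.65, 8.74 and 8.65 in OM3, against 10.59, 10.89 and 10.50 in ip1, a log2 fold change of -1.98 ± 0.15 (limma adjusted p = 1.09e-05). A second SLC39A4 probe was below background in OM3 and passed the filter through ip1 alone, which favoured a lower call. After background correction it was at least 5.14-fold lower in OM3. Its deposited intensities, 152, 141 and 130 in OM3 against 425, 397 and 367 in ip1, differ by less than this bound.

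SLC39A9, an importer of the Golgi and the cell surface, rose by 1.00 ± 0.17 (limma adjusted p = 0.00147). SLC39A3, a plasma membrane importer, rose by 0.62 ± 0.16 (limma adjusted p = 0.0111), a call lost without a filter (adjusted p = 0.0812). SLC39A14, which also carries manganese and iron, rose by 0.37 ± 0.13 (limma adjusted p = 0.0387), but this call was lost in 7 of 15 alternatives, listed in the closing section. SLC39A6, a plasma membrane importer, was not called by its brightest probe (0.33 ± 0.13, limma adjusted p = 0.0702) and was called higher by its second (0.47 ± 0.15, limma adjusted p = 0.0278). SLC39A10, known to be repressed by MTF1 in the mouse, had a log2 fold change of -0.20 ± 0.13 (limma adjusted p = 0.229).

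**Figure D5:**
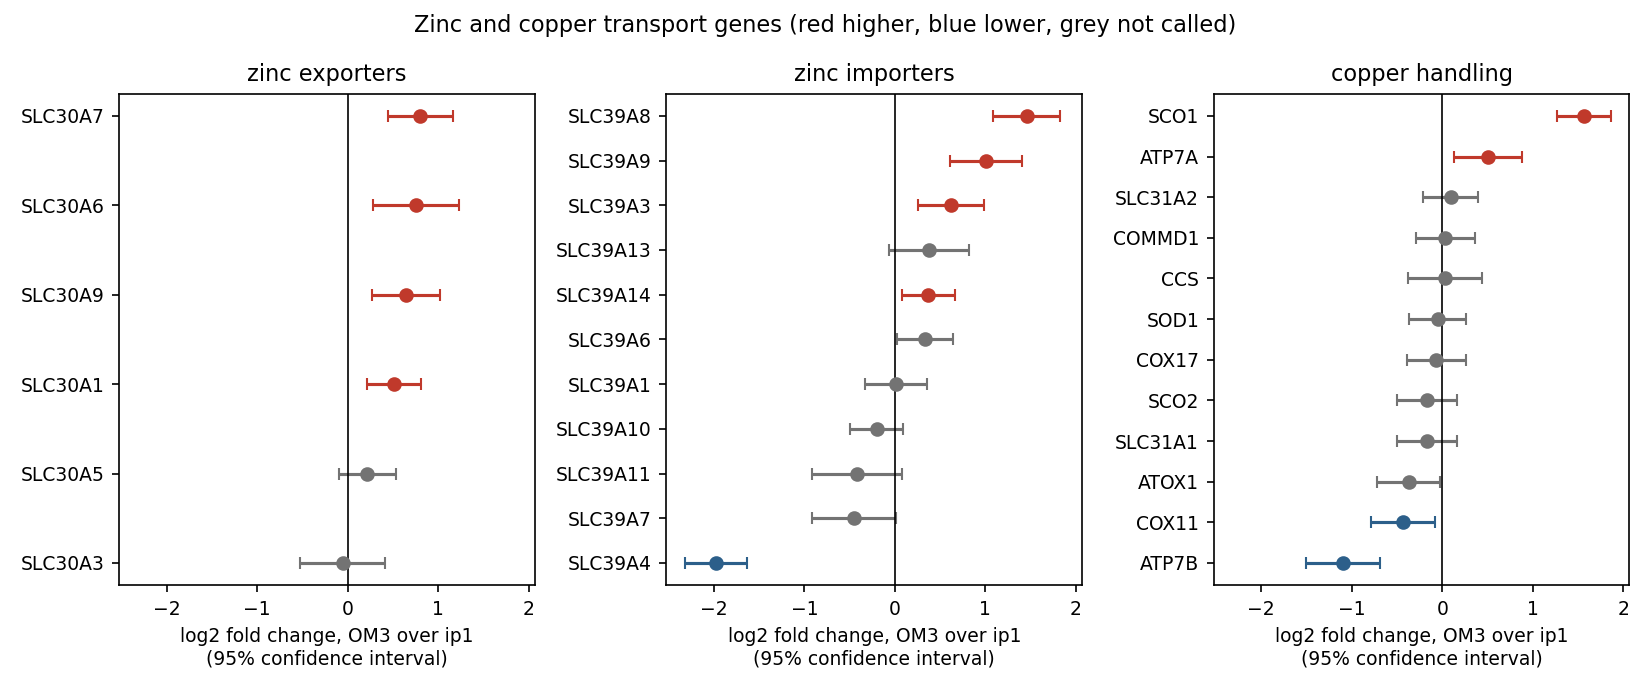
Log2 fold change of OM3 over ip1, with 95% confidence intervals, for tested zinc exporters including SLC30A1, zinc importers and copper handling genes, each by its brightest kept probe (red higher, blue lower, grey not called). SLC39A8 (1.45) and SCO1 (1.57) are the highest points and SLC39A4 (-1.98) the lowest.

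Of 12 tested copper handling genes, most of them chaperones and transporters, 2 were higher, 2 lower and 8 not called (median log2 fold change -0.06). Of all 11732 tested genes 30% were higher, 24.9% lower and 5285 not called (median 0.09). CCS, the chaperone that brings copper to superoxide dismutase, was not called by its brightest probe (0.03 ± 0.18, limma adjusted p = 0.899) but was higher by its second (0.62 ± 0.17, limma adjusted p = 0.0135). SCO1, which helps place copper in cytochrome oxidase, had log2 values of 12.03, 12.19 and 12.01 in OM3, against 10.55, 10.50 and 10.48 in ip1, and rose by 1.57 ± 0.13 (SE, n = 3 each, limma adjusted p = 1.92e-05). ATP7B, a copper-exporting ATPase, fell by 1.09 ± 0.18 on the log2 scale (limma adjusted p = 0.00104). The related ATP7A (0.51 ± 0.16, limma adjusted p = 0.0298, above background on 1 of 3 ip1 arrays) and the cytochrome oxidase assembly gene COX11 (-0.44 ± 0.15, limma adjusted p = 0.0426) were called, but these calls were lost in 8 of 14 and 6 of 15 alternatives. Over the other exporters, the importers and the copper genes together, 28 were tested, with 9 higher and 3 lower; there were 8 higher and 7 lower with cyclic loess, and 4 higher and 2 lower without a filter.

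Genes known to respond to cadmium, zinc or oxidants were called in both directions. Of 9 tested, 3 were higher and 4 lower (median log2 fold change -0.32), against 30% higher and 24.9% lower of all tested genes. The share called higher is near that of all genes, and the share called lower is above it. With 9 tested genes, neither share was tested against all genes. The heat shock protein gene HSPA1A (-6.59 ± 0.29, limma adjusted p = 4.3e-07) and CSRP1, a LIM domain protein (-5.79 ± 0.19, limma adjusted p = 1.02e-07), fell to the level of background in OM3, where each was above it on 2 of 3 arrays. The size of these falls is uncertain: without background correction they were -5.37 for HSPA1A and -4.55 for CSRP1, and fitted on the authors' deposited log2 table -5.10 and -4.27. NDRG1, a stress-induced gene, fell by 2.68 ± 0.31 on the log2 scale (limma adjusted p = 0.000163, above background on 1 of 3 OM3 arrays; -1.63 in the authors' deposited log2 table), and the selenoprotein gene SELENOH fell by 0.63 ± 0.15 (limma adjusted p = 0.00692).

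The subunit genes of glutathione synthesis were higher by their brightest probes, GCLM by 1.08 ± 0.15 (limma adjusted p = 0.000401) and GCLC by 0.69 ± 0.18 (limma adjusted p = 0.0126). The second probe of GCLM was not called (0.39 ± 0.26, limma adjusted p = 0.25), and its groups overlapped, while that of GCLC was higher (0.78 ± 0.16, limma adjusted p = 0.00379). The selenoprotein gene SELENOW rose by 0.47 ± 0.15 (limma adjusted p = 0.0312), a call lost in 6 of 15 alternatives. HMOX1, the haem oxygenase gene, was not called (-0.32 ± 0.16, limma adjusted p = 0.125). The calls of GCLC and SELENOH were lost without a filter (adjusted p = 0.0749 and 0.0637).

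MT2A is also known as a target of the glucocorticoid receptor, and genes of that response were also called in both directions. Of 8 tested, 3 were higher and 4 lower (median log2 fold change -0.89), against 30% higher and 24.9% lower of all tested genes. FKBP5, a co-chaperone of the receptor, rose by 2.23 ± 0.22 (limma adjusted p = 5.94e-05), the transcription factor gene KLF9 by 1.99 ± 0.13 (limma adjusted p = 5.02e-06) and the EGFR inhibitor gene ERRFI1 by 1.04 ± 0.17 (limma adjusted p = 0.00125). The kinase gene SGK1 (-3.83 ± 0.25, limma adjusted p = 4.84e-06), the phosphatase gene DUSP1 (-3.57 ± 0.18, limma adjusted p = 9.72e-07) and the transcription factor gene CEBPD (-1.39 ± 0.18, limma adjusted p = 0.000252) fell. SGK1 was above background on 1 of 3 OM3 arrays, so the size of its fall is uncertain, and KLF9 was dim in ip1; in the authors' deposited log2 table the log2 fold changes were -2.33 for SGK1 and 1.13 for KLF9. The brightest probe of the receptor gene NR3C1 itself was below background on all OM3 arrays. It passed the filter through ip1 alone, which favoured a lower call. After background correction it was at least 1.72-fold lower in OM3 (limma adjusted p = 0.000103). In the authors' deposited log2 table its log2 fold change was -0.53, a smaller fall than this bound. The other 2 NR3C1 probes did not pass the filter.

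The probes whose log2 values, centred on each probe's mean, lay nearest to those of MT2A over the 6 arrays were LCMT2 (Euclidean distance 0.469), ZBED2 (0.487), ETS1 (0.490), ARAP3 (0.501) and ZIC2 (0.568), out of 15747 other tested probes with a gene name. No other metallothionein was among these 5. This follows from their smaller differences between the sublines, since values were centred but not scaled, and adds nothing to them. LCMT2 modifies transfer RNA, ZBED2, ETS1 and ZIC2 are transcription factors, and ARAP3 regulates small GTPases. The likeness mainly reflects a similar difference between the sublines. LCMT2, ZBED2, ARAP3 and ZIC2 were below background on all OM3 arrays, whereas MT2A stayed above it. Without background correction the log2 fold changes of the 5 were between -4.78 and -3.79, and that of MT2A was -5.52.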

How the data were processed

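Total RNA of 6 cell samples (3 OM3, 3 ip1) was hybridised to Illumina arrays. The authors deposited a table of linear probe intensity, traced to BeadStudio per the submitters' processing notes, with no detection p-values, and a table of log2 values, which as deposited by the authors share 1 distribution. The intensity table has 3 further columns that match no sample described here and were not used. Its columns name the group, so arrays are numbered 1 to 3 within a group by column name.

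Background was fitted with limma's normexp on all signals (offset 16), followed by quantile normalization and log2. A probe was above background past a one-sided normal probability of 0.05 over the mode of its array's log2 signals (kernel bandwidth 0.02, SD from values below the mode). That held for 38.3% to 41.9% of probes, and median intensities were 131 to 142. OM3 and ip1 were compared with lmFit and eBayes (limma 3.58.1, R 4.3.3, two-sided, Benjamini-Hochberg over 19011 probes). The number of arrays limits precision (median SE 0.17 on the log2 scale). A larger normexp offset shrinks changes of dim probes, whereas background correction itself enlarges them. The log2 fold change of MT1G was -4.08 as reported, -3.42 with an offset of 50 and -2.84 without background correction. For MT1E it was -1.32, -0.92 and -0.64, in that order. A bound sets the bright group's mean against, per array, whichever was higher of the array's dimmest detected probe and the probe itself.

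Gene names came from the platform annotation with symbols updated through RefSeq: 1 gene was given for 28094 probes, several for 13, and none for 20692. Lists were read by each gene's brightest kept probe. Every member probe is given; of other lists, called genes are named, at most 6 a list, and the 5 profiles nearest to MT2A. SLC39A10, HMOX1, SLC30A5, SLC39A6, CCS, SELENOW, ERRFI1 and the second probes were added after their values were seen. Members and lists were chosen with earlier results of these data known. The fit was tested on simulated data. Alternatives were other offsets, normalizations, filters and tests, the authors' log2 table, 1 probe per gene, and leaving out each array. The files name no slides, so no slide block was fitted.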

Additional observations from a re-analysis of the deposited data

How the results depend on the processing

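The falls of MT2A (log2 fold change -5.99 to -5.43), MT1X (-2.17 to -1.87), MT1G (-4.14 to -2.61) and MT1E (-1.42 to -0.57) passed the test in every alternative in which they were tested. MT1G and MT1E, below background on all OM3 arrays, were not tested where probes had to be above background on all 6 arrays, or with an ip1 array left out, which leaves 2 arrays above background where the filter asks for 3. The count of lower member probes was therefore 2 under the stricter filter and 2 to 4 with an array left out. MT1F was not called in any alternative and turned to 0.048 with median centring; the cause was not tested. The count of higher member probes was 0 with cyclic loess, 0 without a filter, 1 with 1 probe per gene (SLC30A1 then has 1 probe) and 1 to 2 with an array left out. Among zinc and copper transport genes (9 higher and 3 lower as reported) 7 were lower with cyclic loess and 4 higher without a filter, and with an array left out 7 to 10 were higher and 2 to 3 lower. The causes were not tested. Over all probes the counts were 4462 higher and 5034 lower with cyclic loess, and 3603 higher and 3261 lower without a filter; leaving out an array gave 4306 to 5246 higher and 3011 to 4146 lower. The alternatives were run for member probes, called brightest probes of the other gene lists and neighbours, and the 5 probes nearest to MT2A. Of the 44 log2 fold changes among these that passed the test, 31 kept their call in every alternative in which they were tested. Calls of cell markers and of second probes of genes outside the members, such as those of SLC30A5 and SLC39A6, were not checked in this way. SLC39A14 was lost with cyclic loess, without a filter and without ip1 replicates 2 or 3 or OM3 replicates 1, 2 or 3 (adjusted p = 0.0501 to 0.244). ATP7A was lost without background correction, without a filter, in the authors' value table, with a mean-variance trend and without ip1 replicates 2 or 3 or OM3 replicates 1 or 3 (0.0642 to 0.16). COX11 was lost without a filter and without ip1 replicates 2 or 3 or any OM3 replicate (0.0689 to 0.214). SELENOW was lost with cyclic loess, without a filter and without ip1 replicates 1 or 3 or OM3 replicates 1 or 2 (0.0635 to 0.178). BBS2 was lost without a filter (0.0733). No paired analysis was possible because the labels give the groups no shared replicate numbers.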
